A study of Mus musculus with 10 samples.

Results

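Genes that set the width of blood vessels were examined in the whole lung of adult mice breathing room air (normoxia) or intermittent hypoxia, in which inspired oxygen falls and recovers again and again. The rule named 9 genes of the endothelin, nitric oxide, angiotensin and prostacyclin systems. They were Edn1, Ednra, Ednrb, Ece1, Nos3, Ace, Agtr1a, Ptgis and Ptgir. The rule used no measured values to name them, but earlier results of these data were known when they were chosen. It took the probe sets that the array's annotation pairs with exactly 1 symbol equal to one of these names and, per gene, the one whose mean across the 10 arrays was highest. It found 7 of the 9 genes, with 10 probe sets, among 12393 genes with 1 symbol. Ednra and Agtr1a had no such probe set and were not analysed here.

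The lungs came from 10 male mice of the inbred strain C57BL/6, aged 6 to 8 weeks, 5 in normoxia and 5 in intermittent hypoxia, all without any other genotype or agent in the labels. Each lung gave total RNA for its own Affymetrix Mouse Genome 430A array, and the series' design text calls the animals a separate subset. Values are log2 probe set levels, so a difference of 1 is a doubling, and levels of different probe sets cannot be compared with each other. The oxygen levels, exposure length and hour of collection are not given in the sources used here.

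As background, vascular tone in the lung rests on signals that endothelial cells send to the smooth muscle around them. Endothelin, cut from its precursor by a converting enzyme, and angiotensin II, made by angiotensin-converting enzyme on the capillary surface, constrict vessels, whereas nitric oxide and prostacyclin relax them through cyclic GMP and cyclic AMP. The lung vasculature is known for constricting when oxygen falls, for clearing endothelin through the B receptor and for its large store of angiotensin-converting enzyme.

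The start regions of these genes were set beside the values because elements near the start of Edn1 are described in textbooks as sites of hypoxia-inducible factor (HIF), AP-1 and GATA factors. RefSeq windows from 250 bases before to 50 after the start (build GRCm38.p6) were given for 6 of the 9 genes, 10 windows in all, since Ece1 has 4 starts and Ace 2. Searched on both strands were the HIF core ACGTG, the AP-1 letters TGACTNA and the GATA letters NGATAA, which do not overlap each other in the sites shown. The 3 sites below are printed on the plus strand with the matched letters in capitals. The Edn1 run on chr13:42301482-42301503 holds a GATA match and a HIF core, both read on the opposite strand, and starts at base 7 after the annotated start, so it lies in the transcribed part of that gene model. The Edn1 run on chr13:42301508-42301522 holds the AP-1 match. The Ece1 run on chr4:137913458-137913483, before the start of the third window, holds CACGTG, in which the HIF core matches once on each strand.
Edn1, GATA and HIF core: tcTTATCTctggctgCACGTtg
Edn1, AP-1: tgggTGACTAAtcac
Ece1, HIF core: ctgggagaggCACGTGccccgccggc
Among all 32851 windows, 19.6% held the HIF core, 13.9% the AP-1 letters and 25.3% the GATA letters. Of the 10 windows of the chosen genes 2 held the HIF core, those above, while the windows of Ednra, Ednrb, Ace and Ptgir held no HIF core. These matches describe letters only.

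None of the 7 measured genes passed the test. At an adjusted p below 0.05 (limma, Benjamini-Hochberg over all 22626 probe sets) 0 of 7 were called, against 12.5% of all genes and 11.9% of all probe sets. At an unadjusted p below 0.05 there was 1 of the 7, Ptgir, against 32.6% of all genes, and SAM, the method that the series' design text names, called 0 of 7. The changes were small, from -0.26 for Edn1 to 0.23 for Ptgir on the log2 scale, with 3 positive and 4 negative and a median of -0.06 beside 0.01 over all genes. In none of the 7 did the groups stand apart without overlap, which 8.61% of all genes did.

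**Figure D1:**
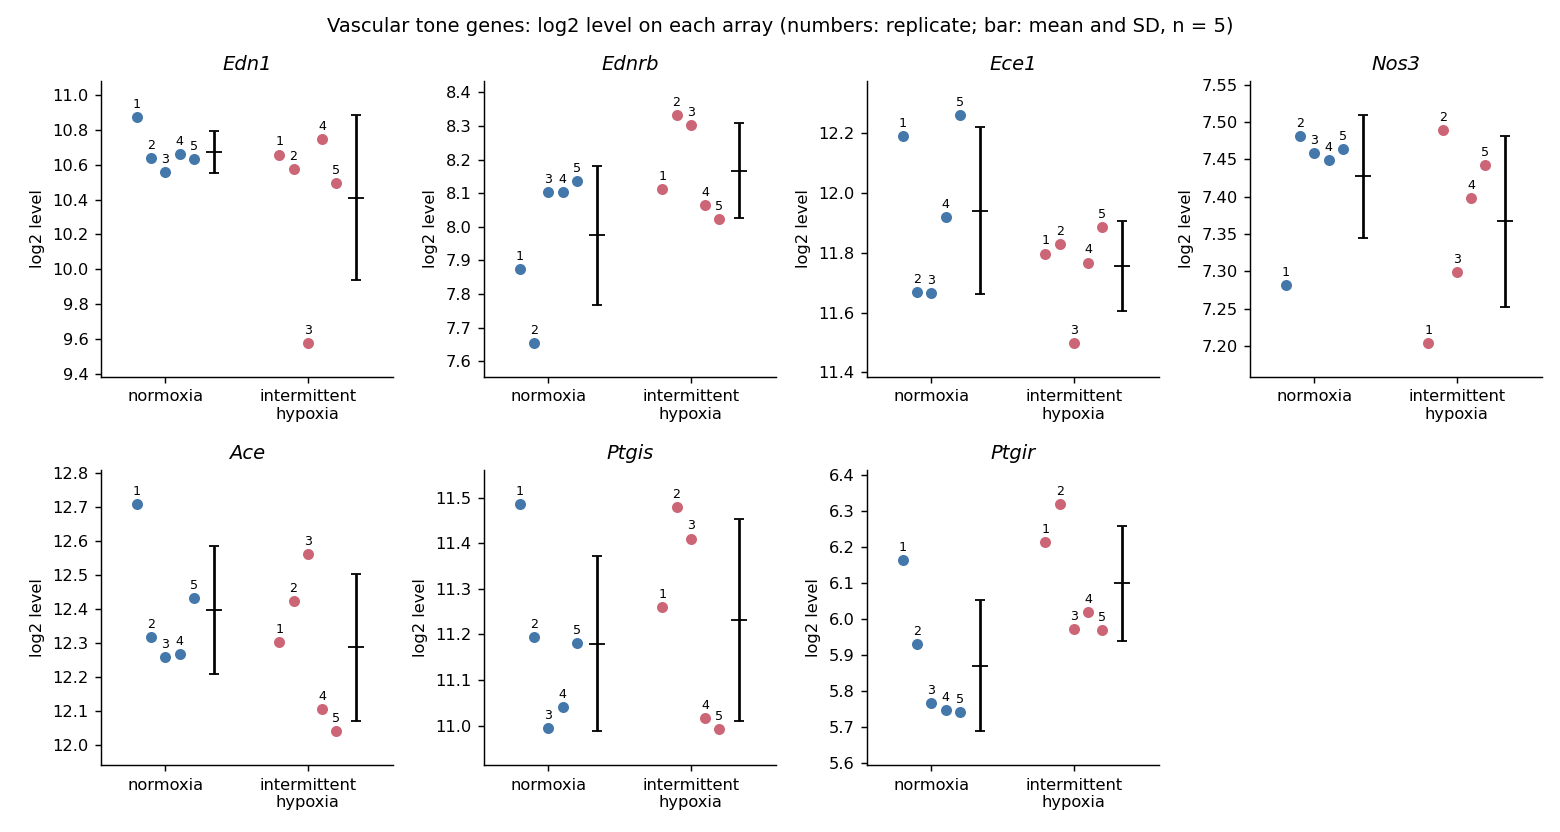
Log2 level (vertical axes, each with its own range) of the 7 measured genes on each array, with points numbered by replicate and bars for the mean and SD (n = 5). The groups overlap in all 7 genes, and Edn1 on hypoxia array 3 lies at 9.58, below the other 9 arrays.

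The endothelin genes come first. Edn1, which encodes the peptide precursor of endothelin-1, read 10.87, 10.64, 10.56, 10.66 and 10.63 on normoxia arrays 1 to 5 and 10.66, 10.57, 9.58, 10.74 and 10.49 on hypoxia arrays 1 to 5. Apart from hypoxia array 3, all 9 values lay within the same narrow range, and the groups overlapped. The means were 10.67 ± 0.12 and 10.41 ± 0.47 (SD, n = 5), a change of -0.26 (SE 0.18, 95% interval -0.65 to 0.12, limma adjusted p = 0.333). Without hypoxia array 3 the change was -0.054 (adjusted p = 0.700), so that array carried most of the difference in means.

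Ece1 encodes the membrane protease that cuts big endothelin to its active form. It read 12.19, 11.67, 11.67, 11.92 and 12.26 in normoxia and 11.80, 11.83, 11.50, 11.77 and 11.89 in intermittent hypoxia. Normoxia arrays 1 and 5 were the highest, while normoxia arrays 2 and 3 lay below 4 of the 5 hypoxia arrays. The change was -0.19 (SE 0.12, 95% interval -0.45 to 0.08, limma adjusted p = 0.320). It was -0.35 after quantile normalization (adjusted p = 0.0542) and -0.47 without normoxia arrays 2 to 4 (adjusted p = 0.152), and the other Ece1 probe set differed by 0.02.

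Ednrb encodes the B receptor, which on endothelium releases nitric oxide and removes circulating endothelin, and in the mouse lung it also marks a capillary cell type. Its levels were 7.87, 7.66, 8.10, 8.10 and 8.14 in normoxia against 8.11, 8.33, 8.30, 8.07 and 8.02 in intermittent hypoxia. Normoxia arrays 1 and 2 were lower than every hypoxia array, and normoxia arrays 3 to 5 lay among them. The change of 0.19 (SE 0.10, 95% interval -0.03 to 0.41) had a limma adjusted p of 0.209, and the other Ednrb probe set differed by 0.05. Of 3 markers of the capillary type with Ednrb none passed, with Car4 at -0.02 and Apln at -0.15.

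Among 4 further endothelin genes none passed, and 2 had an unadjusted p below 0.05. Mme, which encodes neprilysin, a protease that degrades endothelin and natriuretic peptides, read 9.58, 9.16, 8.89, 9.41 and 9.70 in normoxia and 9.74, 9.69, 9.75, 9.87 and 9.72 in intermittent hypoxia. The hypoxia arrays were all high and close together, whereas normoxia arrays 2, 3 and 4 were low. The change was 0.41 (SE 0.13, limma adjusted p = 0.0537), and Edn3, the gene of another endothelin, differed by 0.19 (adjusted p = 0.0637).

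Nitric oxide and its cyclic GMP pathway showed small differences. Nos3, the endothelial nitric oxide synthase, read 7.28, 7.48, 7.46, 7.45 and 7.46 in normoxia and 7.20, 7.49, 7.30, 7.40 and 7.44 in intermittent hypoxia. Array 1 was the lowest of each group, and the groups overlapped over almost their whole range. The change of -0.06 (SE 0.07, limma adjusted p = 0.585) had a 95% interval from -0.21 to 0.09, so that a fall larger than 1.16-fold or a rise larger than 1.07-fold lay outside it. The Nos3 probe set and that of Ptgir had means below the median of all probe sets (7.70), and detection calls were not used here, so how far their signal stands above background is unknown.

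Of 18 measured genes of this pathway 1 fell, none rose and 17 did not pass, with a median change of -0.02. The one that fell was Prkg2, a cyclic GMP-dependent protein kinase, at 8.76, 8.73, 8.66, 8.61 and 8.93 in normoxia and 8.46, 8.63, 8.27, 8.38 and 8.48 in intermittent hypoxia. Only hypoxia array 2 reached the normoxia range. In log2 terms Prkg2 fell by 0.29 (SE 0.08, limma adjusted p = 0.0360), but the call did not survive removal of normoxia array 2, 3 or 4 or of hypoxia array 1, 3 or 4 (adjusted p from 0.0541 to 0.0868), with SAM (0.0582) and with the mean of its probe sets (0.0875). Its other probe set differed by -0.08.

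The subunits of soluble guanylate cyclase, the receptor that nitric oxide activates in smooth muscle, did not pass. Gucy1b1 read 10.80, 10.72, 10.40, 10.49 and 10.94 in normoxia and 10.99, 11.08, 11.01, 10.85 and 10.96 in intermittent hypoxia, with the low values on normoxia arrays 3 and 4. It differed by 0.31 (SE 0.10, limma adjusted p = 0.0581) and Gucy1a1 by 0.30 (SE 0.10, adjusted p = 0.0596). In the other direction, Arg2, an arginase gene, differed by -0.43 (SE 0.14, limma adjusted p = 0.0637), and its other probe set by -0.0034. Nos1, another nitric oxide synthase gene, differed by -0.34 (SE 0.12, limma adjusted p = 0.0716). Neither passed, and both had means under the median of all probe sets.

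The angiotensin genes followed. Ace, the enzyme that makes angiotensin II and degrades bradykinin, read 12.71, 12.32, 12.26, 12.27 and 12.43 on the normoxia arrays and 12.30, 12.42, 12.56, 12.11 and 12.04 on the hypoxia arrays. Hypoxia arrays 4 and 5 were the lowest of all, and hypoxia array 3 was exceeded only by normoxia array 1. The change was -0.11 (SE 0.11, 95% interval -0.35 to 0.13, limma adjusted p = 0.527), and the other Ace probe set gave -0.11 as well.

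Of 11 measured genes of the renin-angiotensin pathway 1 rose, none fell and 10 did not pass, with a median change of -0.03. Prcp, a lysosomal carboxypeptidase that can degrade angiotensin II, read 7.79, 7.54, 7.49, 7.69 and 7.94 in normoxia and 8.14, 8.23, 8.26, 8.20 and 7.90 in intermittent hypoxia. Hypoxia array 5 was the only one to fall within the normoxia range. Prcp rose by 0.46 (SE 0.10, 1.37-fold, limma adjusted p = 0.0134) and kept its call when any single array was left out, while its other probe set differed by 0.39 and did not pass (adjusted p = 0.103). Enpep, an aminopeptidase that trims angiotensin II, differed by 0.30 (SE 0.10, adjusted p = 0.0596).

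Prostacyclin genes closed the set. Ptgis, which encodes prostacyclin synthase, read 11.49, 11.20, 11.00, 11.04 and 11.18 in normoxia and 11.26, 11.48, 11.41, 11.02 and 10.99 in intermittent hypoxia. Both groups spanned the same range, with the low end formed by normoxia arrays 3 and 4 and hypoxia arrays 4 and 5. The change of 0.05 (SE 0.11, 95% interval -0.20 to 0.30, limma adjusted p = 0.784) had no stable sign, with -0.089 after quantile normalization and -0.10 without normoxia arrays 2 to 4.

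Ptgir encodes the prostacyclin receptor. Its levels were 6.16, 5.93, 5.77, 5.75 and 5.74 in normoxia and 6.21, 6.32, 5.97, 6.02 and 5.97 in intermittent hypoxia. Every hypoxia array lay above normoxia arrays 2 to 5, and normoxia array 1 overlapped the hypoxia range. The change was 0.23 (SE 0.10, 95% interval 0.02 to 0.44, limma adjusted p = 0.133). Without normoxia array 1 it was 0.30 and passed (adjusted p = 0.0391), the only case among the alternatives run in which any of the 7 genes passed.

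Of 16 other measured prostanoid genes 1 fell, none rose and 15 did not pass, with a median change of -0.0036. That gene was Hpgd, the dehydrogenase that inactivates prostaglandins in the lung. Hpgd read 13.50, 13.09, 13.14, 13.10 and 13.10 in normoxia and 12.68, 12.87, 12.84, 12.57 and 12.43 in intermittent hypoxia, with no overlap. It fell by 0.51 (SE 0.10), which leaves 0.703 of the normoxia level (limma adjusted p = 0.0118), and its other probe set fell by 0.80 (SE 0.10, adjusted p = 0.00193). The call held without each single array in turn. Ptges, a prostaglandin synthase, differed by 0.25 (adjusted p = 0.0600).

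**Figure D2:**
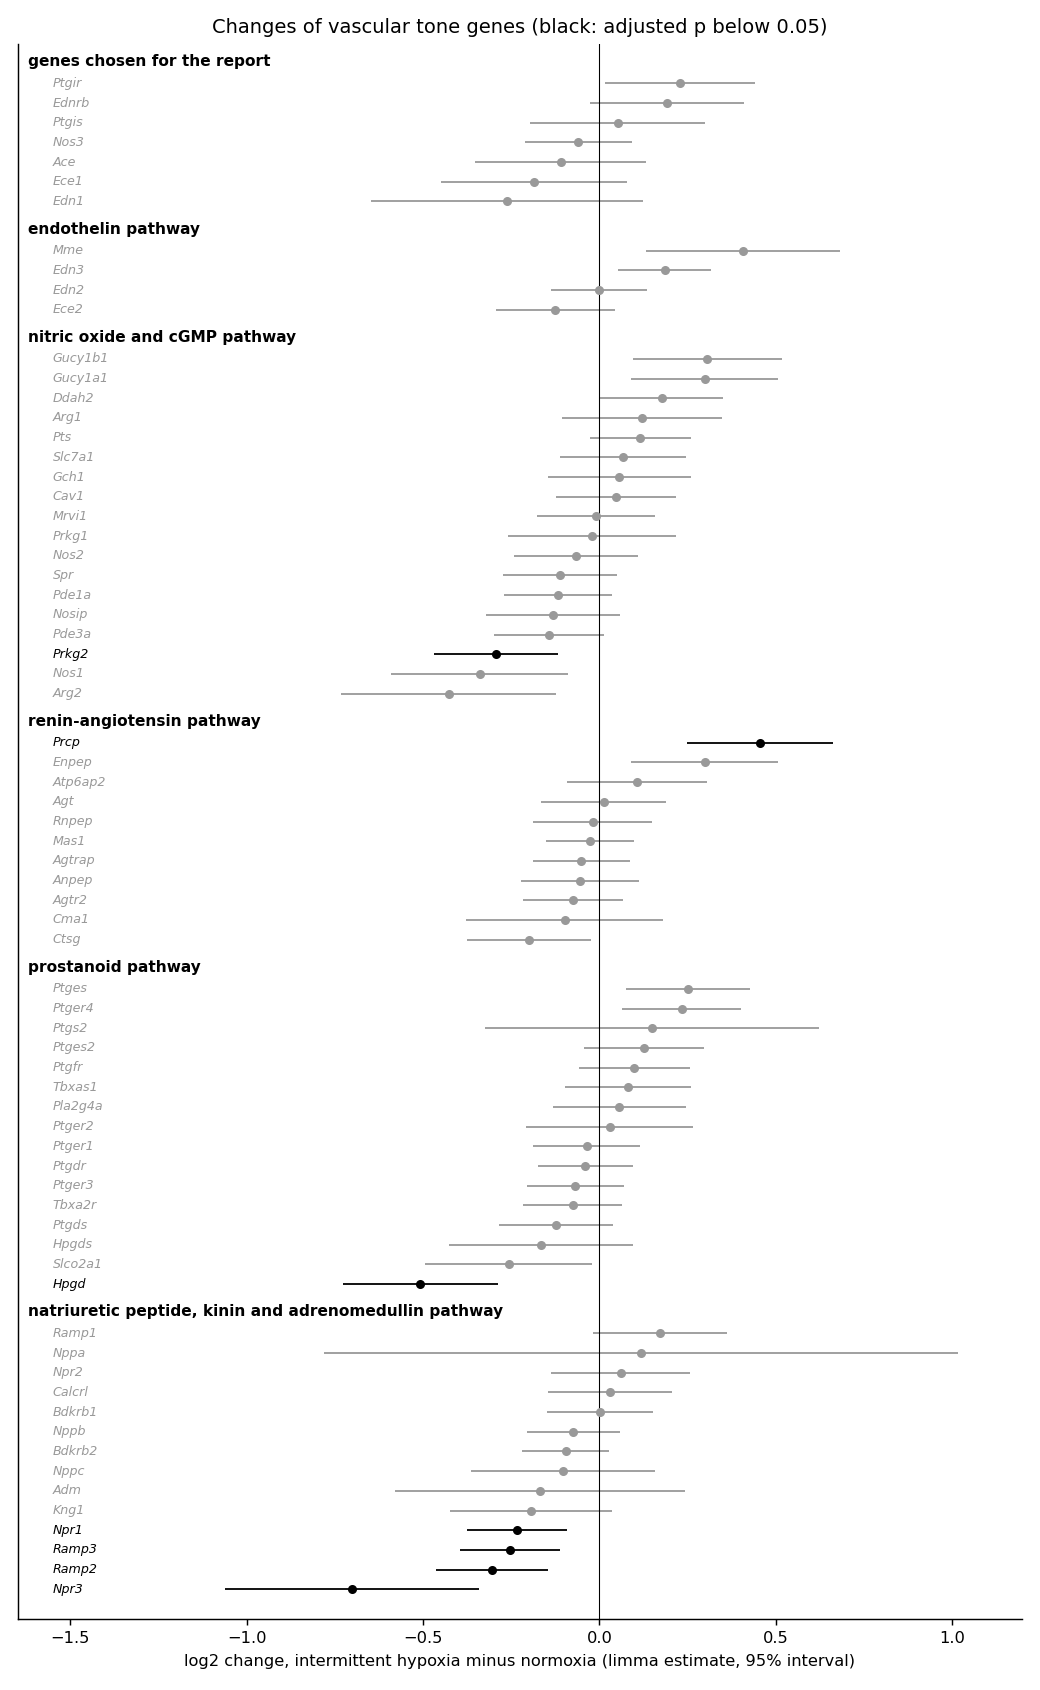
Log2 change between intermittent hypoxia and normoxia (horizontal axis, limma estimate with its 95% interval) for the 7 chosen genes and 63 pathway genes in 5 lists, black where the adjusted p is below 0.05. Black points are 7 pathway genes, of which only Prcp lies above 0, and none of the chosen genes.

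The remaining list held the natriuretic peptides, kinins and adrenomedullin, other peptides that relax vessels. Of its 14 measured genes 4 fell, none rose and 10 did not pass, with a median of -0.10, beside 3.60% of all genes lower. Npr3, the receptor that clears natriuretic peptides, read 10.34, 10.02, 10.35, 10.19 and 10.12 in normoxia and 9.14, 9.37, 9.14, 10.14 and 9.72 in intermittent hypoxia. Hypoxia array 4 alone lay within the normoxia range. Npr3 fell by 0.70 (SE 0.17, limma adjusted p = 0.0209) to 0.615 of its normoxia level. Its other probe sets differed by -0.43 and -0.05 and did not pass, nor did the mean of the 3 (-0.39, adjusted p = 0.0769), SAM (0.0524) or the fits that dropped normoxia array 3 or 4 or hypoxia array 1, 2 or 3 (adjusted p from 0.0505 to 0.0549). Without hypoxia array 4 the change was -0.86 (adjusted p = 0.00521).

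Npr1, the guanylate cyclase receptor that natriuretic peptides activate, read 7.88, 7.70, 7.72, 7.73 and 7.91 in normoxia and 7.49, 7.65, 7.59, 7.50 and 7.55 in intermittent hypoxia, without overlap. It fell by 0.23 (SE 0.07, limma adjusted p = 0.0373). Its probe set, like that of Ramp3 below, had a mean under the median of all probe sets, with the same limit on background as for Nos3. Removal of any array other than normoxia array 5 or hypoxia array 2 ended this call, so 8 removals did, with adjusted p from 0.0521 to 0.0832. The peptide genes did not pass, with Nppa at 0.12 (SE 0.42), Nppb at -0.07 and Nppc at -0.10. These peptide genes were chosen after their values were seen, as were Calcrl and Adm below. Nppa read 7.52 on hypoxia array 4, 9.74 to 10.33 on the other hypoxia arrays and 8.89 to 9.86 in normoxia. That low array pulled the hypoxia mean of Nppa down, so the change of 0.12 is smaller than the other hypoxia arrays alone would give.

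Ramp2 and Ramp3 encode small membrane proteins that turn the calcitonin receptor-like receptor into a receptor for adrenomedullin. Ramp2 read 12.91, 12.86, 12.76, 12.71 and 12.93 in normoxia and 12.45, 12.67, 12.65, 12.45 and 12.43 in intermittent hypoxia. Ramp3 read 7.51, 7.50, 7.76, 7.60 and 7.55 in normoxia and 7.33, 7.38, 7.37, 7.34 and 7.23 in intermittent hypoxia. In both genes every hypoxia array lay below every normoxia array.

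Ramp2 fell by 0.30 (SE 0.07, limma adjusted p = 0.0220) and Ramp3 fell by 0.25 (SE 0.07, adjusted p = 0.0280). The Ramp2 call ended when normoxia array 2 or hypoxia array 1 or 4 was removed (adjusted p from 0.0505 to 0.0561). The Ramp3 call ended when normoxia array 3 or 4 or hypoxia array 1, 3 or 4 was removed (0.0519 to 0.0678). The receptor gene Calcrl differed by 0.03 and the peptide gene Adm by -0.17, and neither passed. The other Calcrl probe set differed by 0.53 (SE 0.21, limma adjusted p = 0.114) and did not pass either.

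**Figure D3:**
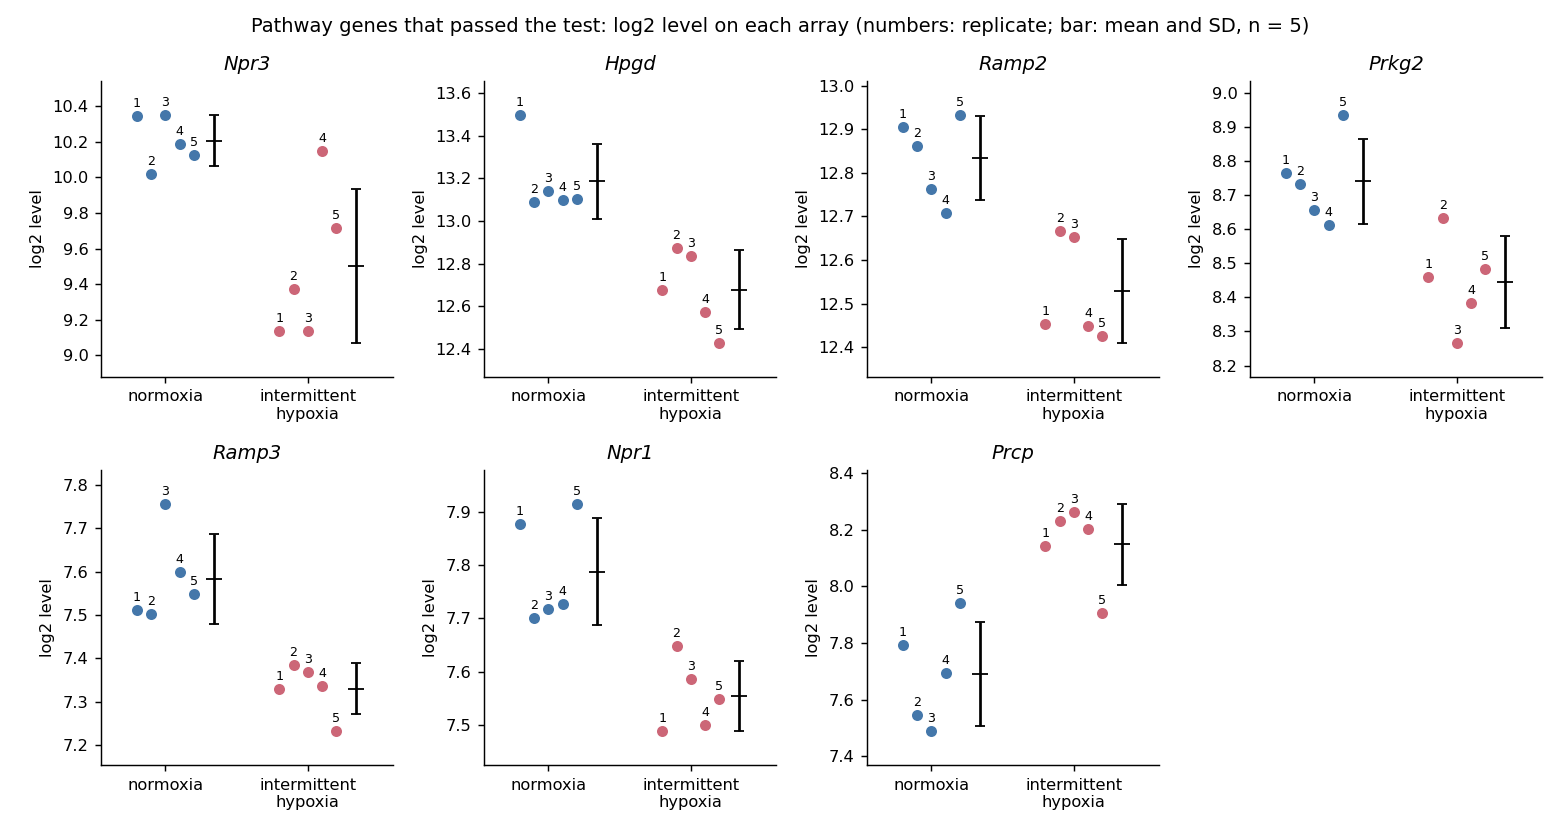
Log2 level (vertical axes, each with its own range) of the 7 pathway genes that passed the test on each array, with points numbered by replicate and bars for the mean and SD (n = 5). The groups do not overlap in Hpgd, Npr1, Ramp2 and Ramp3, and in Npr3 hypoxia array 4 (10.14) lies among the normoxia values.

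Over all 5 pathway lists 63 of 74 genes were measured, of which 1 rose, 6 fell and 56 did not pass, with a median change of -0.03. The 7 called genes were a share of 11.1%, close to the 12.5% of all genes. The split of 1 higher and 6 lower was 5 and 4 when dim probe sets were left out (29 genes tested) and 6 and 7 with arrayWeights. At an adjusted p below 0.10 it was 8 and 8, with averaged probe sets 3 and 4, and without normoxia array 5 it was 7 and 7. More genes were lower than higher with SAM (1 and 4), the replicate block (2 and 5) and quantile normalization (2 and 7). The same held with median centring (1 and 6) and the trend and robust options of eBayes (2 and 6). By direction, 8.93% of all genes were higher and 3.60% lower in the test with all arrays and probe sets. The groups did not overlap in 4 of the 63, beside 8.61% of all genes. With 1 array removed the count was 3 for normoxia array 3 or 4 or hypoxia array 3 or 4, it was 2 for hypoxia array 1, and it was 14 for normoxia array 5. When normoxia arrays 2, 3 and 4 were dropped together, whose values had a narrower spread over all probe sets, 0 of the 63 passed with 2 normoxia arrays left (16 of 22626 probe sets in all). The changes of the 7 genes then ran from -0.73 for Npr3 to 0.28 for Prcp, with Hpgd at -0.62.

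The SD of all values on an array ran from 1.89 to 2.05. Of the probe sets called, 71.2% were higher with the values as deposited and 59.1% after quantile normalization. Among the 7 chosen genes only Ptgis turned its sign under that scaling, and all 7 called pathway genes kept theirs and their calls.

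Markers of the cells that carry these genes were measured in the same lungs, and fewer cells of a type cannot be told apart from less RNA per cell. All 9 lung epithelial markers were measured, 8 of them at or above the median of all probe sets and Nkx2-1 below it, and their mean log2 level was 12.15 to 12.36 on normoxia arrays and 12.19 to 12.44 on hypoxia arrays. The 10 endothelial markers, all measured, had mean levels of 10.80 to 11.27 in normoxia and 11.05 to 11.35 in intermittent hypoxia, and 1 of them, Emcn, rose (1.03). Of 8 smooth muscle markers, all measured, none passed, with mean levels of 9.90 to 10.07 and 9.78 to 10.26, and of 6 pericyte markers 1 fell, Rgs5 (-0.63), with 9.40 to 9.70 and 9.46 to 9.69. The endothelial mean was 0.20 higher in intermittent hypoxia, and 0.11 higher without Emcn. The other 9 markers did not pass, with Pecam1 the nearest at 0.42 (limma adjusted p = 0.0720). Of the 10 endothelial markers 8 had a positive change and 2 a negative one, Vwf at -0.35 and Ptprb at -0.10. The part of endothelial cell number in the falls of Ramp2, Ramp3, Npr1 and Npr3 was not tested.

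Markers of other cells were set beside the same values. The mean of 6 macrophage markers, all measured, was 8.88 to 9.07 in normoxia and 8.95 to 9.65 in intermittent hypoxia, 3 of them rose (Cd68 by 0.74, Itgax by 0.66), and hypoxia array 5 was the lowest of its group in 5 of the 6 and in Prcp. That of 3 measured B cell markers of 4 was 8.14 to 9.36 and 9.31 to 10.23, and all 3 rose (Cd79a by 1.01, Ms4a1 by 1.14). The mean of 3 measured adipose markers of 5 was 7.76 to 9.06 and 6.68 to 8.02, and none of them passed. Of 2 measured general capillary markers of 3, Aplnr rose (1.15), with a mean of 10.57 to 11.62 in normoxia and 11.67 to 12.13 in intermittent hypoxia. Col1a1 and Col1a2 rose by 0.80 and 0.45 among 6 fibroblast markers, all measured, whose mean was 10.83 to 11.21 and 11.17 to 11.35. Of 3 measured red cell markers of 4, Slc4a1 fell by 1.03, with 7.84 to 8.43 and 7.33 to 7.71. The probe sets of Slc4a1 and Hba-a1 had means under the median of all probe sets. Hba-a1 was at 5.28 in normoxia and 5.22 in intermittent hypoxia, with the same limit on background as for Nos3. Of 6 cardiac muscle and 4 mast cell markers, all measured, none passed. Hypoxia array 4 had the lowest adipose, cardiac muscle and smooth muscle means of all arrays (6.68, 10.44 and 9.78) and, of the hypoxia arrays, the highest Npr3 level. No marker was listed at 0, as log2 array values do not reach it. The part of these cells in the changes of the pathway genes was not tested.

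The chosen genes also varied from lung to lung within each group. For each, the 3 genes most like it were found among 7222 or 7223 genes at or above the median level, by Pearson r over the 10 arrays after each group's mean was subtracted. These r values describe likeness on shared arrays and carry no test. For Edn1 they were Dusp2, an early-response phosphatase gene (r = 0.954), Ppa1, a pyrophosphatase gene (0.918), and Tec, a kinase gene (0.910). Dusp2 read 7.97 on hypoxia array 3 and 8.43 to 8.49 on the other hypoxia arrays, so it shared the low value of Edn1 there. Ppa1 (7.73) and Tec (7.99) were also lowest of all arrays on hypoxia array 3. The r values of Edn1 thus lean on that array, where it lay 0.83 below its group mean, and r without it was not computed.

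Ace was most like Ephx1, the microsomal epoxide hydrolase gene (r = 0.983), followed by Cyb5r3 (0.972) and S100a6 (0.972). Ptgis was most like Rbm22 (0.975), Plekhb2 (0.974) and Tceal1 (0.969), and Ece1 was most like Ndufs5, a respiratory chain subunit gene (0.970), Ptpn18 (0.957) and Gpc3 (0.956). Ptgir came closest to Pnrc2 (0.961), Txndc17 (0.932) and Shroom3 (0.931), Ednrb to Ltbp2 (0.940), Foxa1 (0.903) and Slc25a17 (0.873), and Nos3 to Arhgef40 (0.929), Lig1 (0.925) and Plekha4 (0.901). None of the chosen genes was among the 3 nearest of another, though Nos3 and Ptgir lay below the level set for that comparison. A place among only 3 of so many genes says little on whether the chosen genes varied together, and r between them is not reported here. Ace and Ptgis, for example, were both highest of all arrays on normoxia array 1 and lowest on hypoxia array 5.

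**Figure D4:**
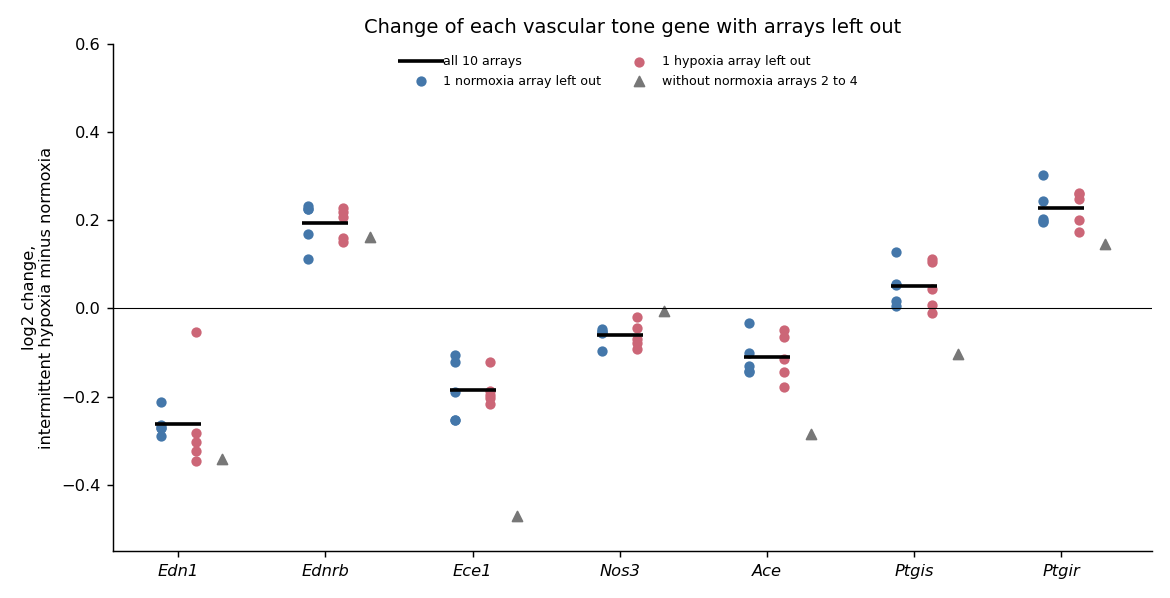
Log2 change between intermittent hypoxia and normoxia (vertical axis) of the 7 measured genes with all 10 arrays (black line), with 1 array left out (dots) and without normoxia arrays 2 to 4 (triangles). Edn1 moves from -0.26 to -0.054 without hypoxia array 3, and Ece1 to -0.47 without the 3 normoxia arrays.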

How the data were processed

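Total RNA of whole lung was labelled and hybridised to 1 array per animal, per the labels' protocols. The log2 probe set levels were used as deposited by the authors. Per the submitters' processing notes RMA and affy were used, with no version or setting, and how the arrays were normalized is uncertain. No probe set was filtered out, and of the 22626 tested 20380 had 1 symbol, 691 several and 1555 none in the annotation table. The number of arrays limits the precision.

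The comparison used lmFit and eBayes of limma 3.58.1 in R 4.3.3. Its two-sided p-values were adjusted by Benjamini-Hochberg across the whole table, and 0.05 was the threshold. Intervals are 95% intervals of that model. The scripts were tested on simulated data. The genes, pathway lists, marker lists and alternatives were chosen with earlier results of these data known. Named were all chosen genes, pathway genes that passed, those with the 2 smallest p of each list, the 3 most like genes and the 2 markers with the smallest p of a list. Genes outside this rule were named after their values were seen. They were Gucy1a1, Arg2, Nos1, Nppa, Nppb, Nppc, Calcrl, Adm and the markers Vwf, Ptprb and Hba-a1. The lung epithelial marker named as below the median of all probe sets was also outside this rule. SAM used 100 permutations, and its false discovery rate was the mean number of permuted calls over those observed. The main comparison did not treat same-numbered arrays as pairs. Their deviations correlated from -0.24 to 0.22, but differently numbered arrays were not compared, so whether the numbers pair the arrays is unknown.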

Additional observations from a re-analysis of the deposited data

Results flagged for a closer look

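In 28 groups of 5 arrays (7 chosen and 7 called pathway genes) a single array stood far from the other 4 in 3 cases, by Dixon's gap test at its 95% critical value of 0.71. Chance alone flags about 1 in 20 such groups. Edn1 was 9.58 on hypoxia array 3, with the nearest other hypoxia array at 10.49. Nos3 was 7.28 on normoxia array 1, with the nearest other at 7.45. Hpgd was 13.50 on normoxia array 1, with the nearest other at 13.14, and its change was -0.43 without that array.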

How the results depend on the processing

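The number of chosen genes called was 0 under SAM, the replicate block, quantile normalization, median centring, the filter on dim probe sets (5 genes tested), arrayWeights, the trend and robust options of eBayes, a threshold of 0.10, averaged probe sets and without normoxia arrays 2 to 4, and 0 to 1 with 1 array left out. Changed probe sets numbered 2699, against 1506 with SAM, 1755 with the replicate block, 4132 with arrayWeights, 4954 at an adjusted p below 0.10, 16 without normoxia arrays 2 to 4 and 1003 to 4800 with 1 array left out. Quantile normalization gave 1350 higher and 935 lower, against 1923 and 776. Changed pathway genes numbered 7, against 13 with arrayWeights, 16 at an adjusted p below 0.10, 0 without normoxia arrays 2 to 4, and 2 to 14 with 1 array left out. The change of Ptgis, 0.05, turned to -0.089 with quantile normalization and to -0.10 without normoxia arrays 2 to 4. With 1 array left out it was -0.010 to 0.13. The replicate block, which treats same-numbered arrays as pairs, left 7 pathway genes called, without Npr1 (adjusted p = 0.0822) and Ramp3 (0.0550). The cause of these shifts was not tested, beyond fewer arrays, other thresholds or weights by construction.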
